A study of Caenorhabditis elegans with 2 samples.

Results

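The genes sygl-1, lst-1, fbf-2 and utx-1 of Caenorhabditis elegans are described as targets of the Notch receptor GLP-1 in germline stem cells. They were taken by name, as 4 of 19973 protein-coding genes on the nuclear chromosomes. All binding entries with a summit from 2000 bp upstream of the gene's 5' end to its 3' end were counted, which gave 26 of the 125458 candidates in the ranking that compares the 2 replicates. Binding of LAG-1 was measured by chromatin immunoprecipitation and sequencing (ChIP-seq) in 1 group of 2 biological replicates. The worms were of strain RW12314, in which the lag-1 gene itself carries TY1, EGFP and 3xFLAG, so every worm expressed tagged LAG-1 from its own locus. They were synchronised as L1 larvae starved after bleaching, grown to young adults at 62 hours and used whole, and the antibody was to GFP. Whole worms pool the germline with all somatic tissues, so binding in fewer cells and less binding per cell cannot be told apart. An immunoprecipitation from untagged worms was not analysed here. The lists give no read totals, so the depth of either replicate is unknown.

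In the adult gonad the distal tip cell presents Notch ligands to neighbouring germ cells, and ligand binding releases the intracellular part of GLP-1. That fragment enters the nucleus and joins LAG-1, a CSL-type DNA-binding protein, and the coactivator SEL-8 at target genes. SYGL-1 and LST-1 act redundantly to keep germ cells in the stem cell state, and both bind the PUF-family RNA-binding protein FBF-2 and its close relative FBF-1, which repress mRNAs that promote differentiation. UTX-1 is a demethylase of lysine 27 of histone H3 and opposes Polycomb-type repression. CSL proteins bind the core TGGGAA, most often preceded by a purine and written RTGGGAA.

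The LAG-1 sites in the 4 spans fell into a dense pair of groups, at sygl-1 and lst-1, and isolated sites at fbf-2 and utx-1. The spans held 16 RTGGGAA sites on either strand, 6 each at sygl-1 and lst-1 and 2 each at fbf-2 and utx-1. The median over all protein-coding genes was 1.00, and 41.7% of them had 2 or more and 3.80% had 6 or more. Per kb of span there were 1.36 sites at sygl-1, 1.51 at lst-1, 0.433 at fbf-2 and 0.247 at utx-1, against a median of 0.282. Of the 16 sites, 8 lay within 100 bp of a candidate summit, 4 at sygl-1 and 4 at lst-1, and these 8 all read GTGGGAA. Over the genome 39.9% of 33459 RTGGGAA sites read GTGGGAA and 26.0% lay within 100 bp of a candidate summit. The 4 sites of fbf-2 and utx-1 lay 142 to 479 bp from the nearest summit.

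Those 4 isolated sites are shown with their neighbouring bases, 5′ to 3′ on the strand that reads RTGGGAA (capitals), because they are the only matches in the spans of both genes. Bases were read from NCBI RefSeq's copy of assembly WBcel235 (ce11).
fbf-2 5' UTR, chrII:6091430-6091459, plus strand: agaaaataggaATGGGAAtatgaaaataat
fbf-2 upstream, chrII:6092781-6092810, plus strand: tatctattcaaATGGGAAaatcatttgatt
utx-1 intron, chrX:8558078-8558107, minus strand: cacaactagttGTGGGAAaactgccagttt
utx-1 coding exon, chrX:8560922-8560951, minus strand: tttcggtaagaATGGGAAgctgtagcatct
All 4 read against the direction of their gene. For comparison, the LAG-1 peak in an intron of lag-1 held a pair of sites that start 15 bp apart, both on the minus strand.
lag-1 intron, upstream site of the pair in gene direction, chrIV:6097163-6097192, minus strand: gaaaaacgagcGTGGGAAagtgtcggcggt
lag-1 intron, other site, chrIV:6097178-6097207, minus strand: gtgtgtgtgtgGTGGGAAaaacgagcgtgg

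LAG-1 signal passed the threshold at sygl-1 and at none of the other 3 genes. The threshold was 0.01 on the irreproducible discovery rate (IDR), which estimates, among entries ranked as well or better, the share that does not hold up between a pair of ranked lists. The deposited conservative list has the same limit. Of all protein-coding genes 1.56% had a candidate past it in the same span, and 0.312% of candidates passed. At an IDR of 0.05 the count of members was still 1, where 7.79% of genes and 1.37% of candidates passed. In the pooled ranking, which holds the same signals at the members' strongest candidates, sygl-1 was the 1 member past 0.01, where 1.78% of genes passed. The strongest candidate had a signal (the authors' measure of peak strength, which has no named unit) of 100.3 at sygl-1, 40.4 at fbf-2, 38.9 at utx-1 and 29.2 at lst-1. The values of fbf-2 and utx-1 lay close together and that of lst-1 was lowest, but with 2 replicates and no error per peak the order was not tested. The median of the 4 was 39.7, and over the 19055 protein-coding genes with a candidate it was 32.7. Among those genes sygl-1 ranked 38, fbf-2 4033, utx-1 4816 and lst-1 12684. The utx-1 span was 8093 bp with 11 candidates, where the medians over all protein-coding genes were 4027 bp and 5.00. The spans of the other 3 were 3965 to 4618 bp. A longer span offers more candidates for the maximum, and the ranks were not adjusted for this.

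**Figure D1:**
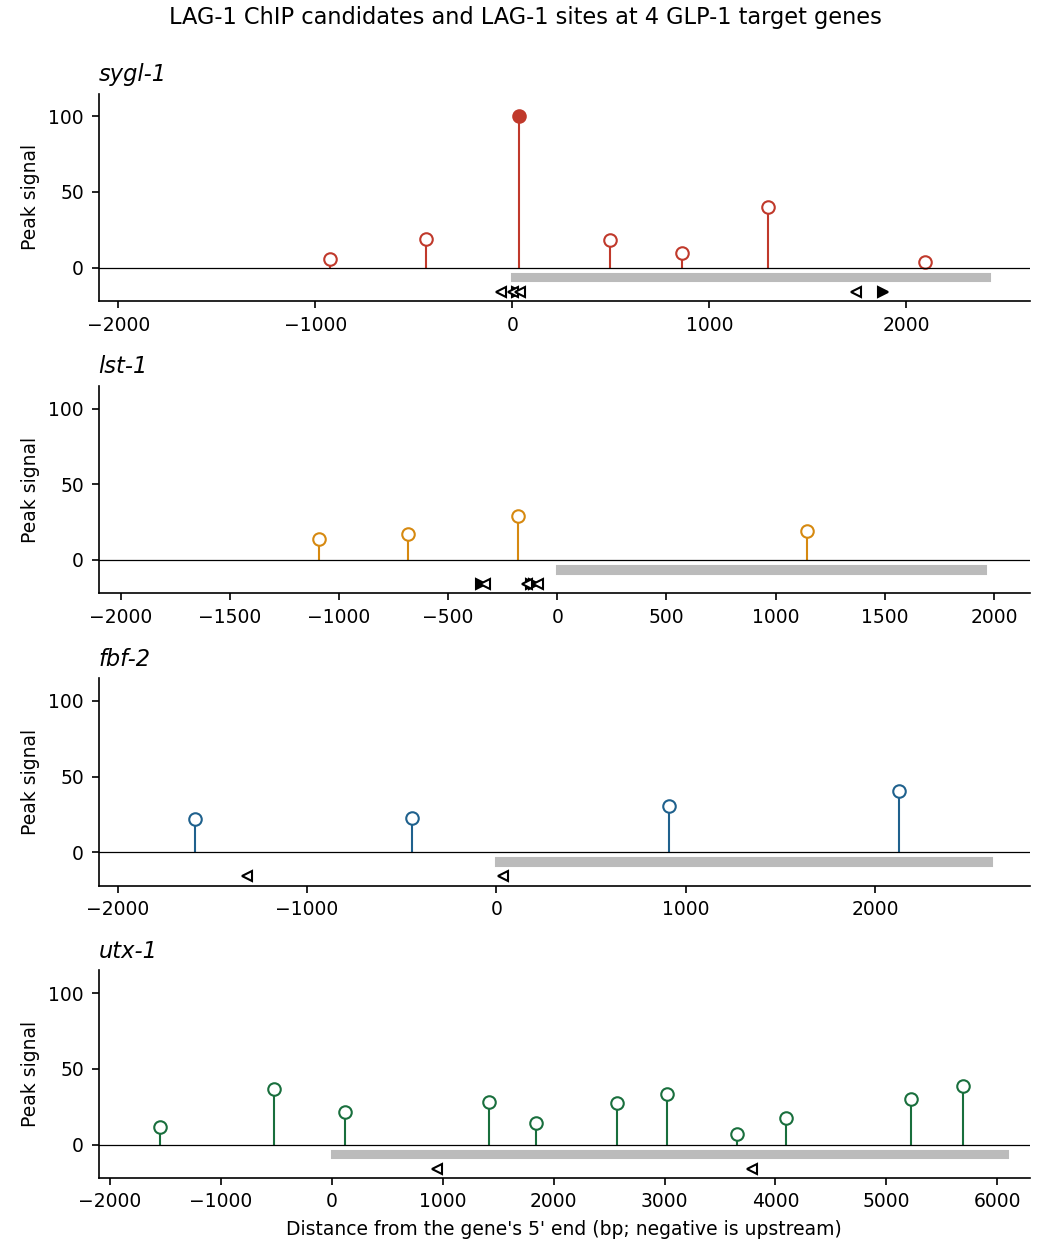
Each stem is a candidate of the replicate ranking, with its distance from the gene's 5' end in bp on the x axis and its peak signal on the y axis. Filled circles passed an IDR of 0.01 and open circles did not. The grey bar is the gene, and triangles are RTGGGAA sites that read with the gene (filled) or against it (open). The sygl-1 candidate at 100.3 stands over a group of sites at the gene start, while the sites of fbf-2 and utx-1 lie between candidates.

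The sygl-1 peak was found in the own rankings of both replicates, with summits 18 bp apart. It was also in the pooled ranking and the conservative list, but these were made from both replicates. The pooled ranking gave the same signal and summit as the replicate ranking, so it does not bear separately on the place. The entry at chrI:12483725-12483960 ranked 33 by signal among the 291 entries of the conservative list, and 2 among the 20 of those with a LAG-1 site (6.87% of the list). In the own ranking of replicate 1 its signal was 52.6 (IDR 0.00662), and in that of replicate 2 it was 42.3 (IDR 0.00390). Both replicates' thresholded lists held it, in the lower part by signal, at rank 30 of 47 and rank 72 of 77. Of all protein-coding genes 0.275% and 0.456% had a candidate past 0.01 in these own rankings. The pooled ranking gave it an IDR of 0.00134. Both summits fell in the 5' UTR, at 34 bp from the gene's 5' end in replicate 1 and at 16 bp in replicate 2. No other protein-coding gene had this summit in its span.

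The 4 GTGGGAA sites of the sygl-1 peak covered 103 bp around the gene's 5' end. Their middle bases lay 59 bp upstream of it and 5, 21 and 37 bp downstream, in the 5' UTR. In the direction of the gene the order was against, against, with and against the gene, with starts 64, 16 and 16 bp apart. Both replicates' summits fell among the last 3 sites. The other 2 sites of the span, both ATGGGAA in an intron, lay 1744 and 1882 bp downstream, and the nearest summit was 348 and 210 bp away.

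The other 6 candidates at sygl-1 held no LAG-1 site and missed the threshold. The strongest of them lay in a coding exon 1297 bp downstream of the gene's 5' end, at signal 40.3 and IDR 0.112. The signal was 19 in each of the compared lists, which are the peak lists set against each other in the ranking. This candidate also lay in the span of pars-2. The remaining 5 had signals from 3.8 to 19.1, against a median of 19.4 over all candidates.

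At lst-1 as many sites lay in a narrower group, but the signal did not stand out. The strongest candidate, at chrI:10588202-10588437, reached 29.2 in signal (IDR 0.18), which is percentile 82.0 of all candidates. Its signals in the 2 compared lists were alike, at 17.0 and 16.1. The own ranking of replicate 1 held it at 17.0 (IDR 0.851), and that of replicate 2 held no entry in the lst-1 span. The own rankings are shorter, at 61205 and 56445 entries against 125458, so a place missing there is not shown to lack signal. Of protein-coding genes 90.4% had an entry in their span in the own ranking of replicate 1 and 88.6% in that of replicate 2. In the pooled ranking its IDR was 0.299. The lst-1 candidate was soft-masked in the assembly over 57.7% of the bases around its summit, and the sygl-1 peak over 44.3%.

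The 4 GTGGGAA sites of lst-1 covered 56 bp, all upstream of the gene, at 139, 119, 107 and 90 bp from its 5' end. They read against, with, with and against the gene, with starts 20, 12 and 17 bp apart. The summit lay 181 bp upstream, so all 4 sites were on its gene side, 42 to 91 bp away. The summit was 184 bp upstream in the first compared list and 135 bp in the second, which placed it inside the group in the second only. A further pair of ATGGGAA sites lay 347 and 330 bp upstream, 149 to 166 bp from the summit, with starts 17 bp apart and in opposite orientations. The other 3 lst-1 candidates held no site and had signals from 13.8 to 19.3, below the median of all candidates. The 1 in a coding exon, 1143 bp downstream, also lay in the span of set-18.

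**Figure D2:**
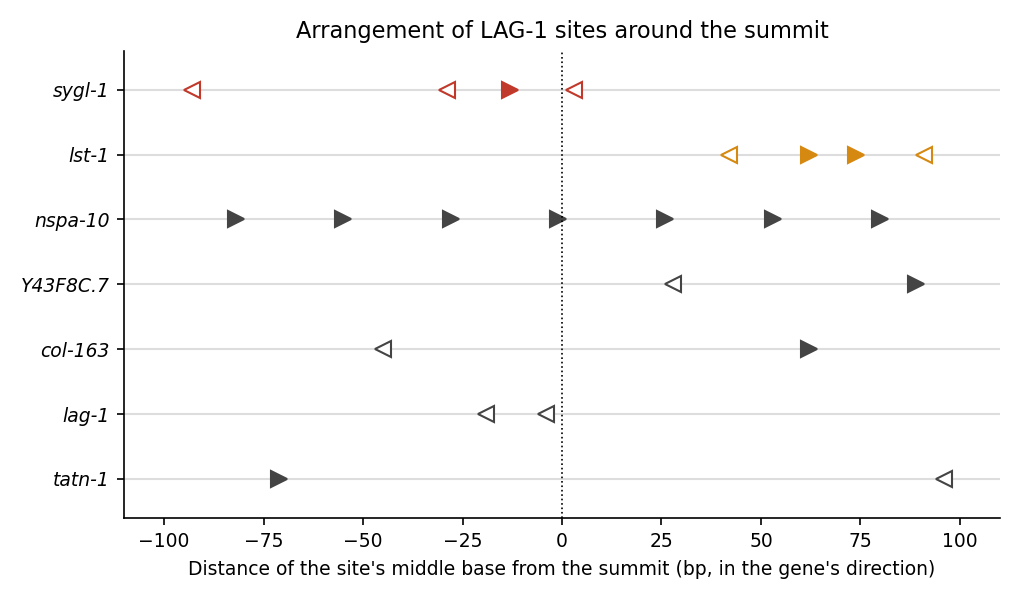
Each triangle is an RTGGGAA site, placed by the distance in bp of its middle base from the peak summit in the direction of the named gene, filled where it reads with the gene and open where it reads against it. Rows are the strongest candidates of sygl-1 and lst-1 and the 5 conservative-list peaks with the most sites. The last site of sygl-1 lies at the summit the sites of lst-1 lie 42 to 91 bp past it, while 7 evenly spaced sites mark the peak nearest nspa-10.

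Neither fbf-2 nor utx-1 had a candidate with a LAG-1 site, so 2 of the 26 candidates held one, where 6.44% of all candidates did, a share near that of the members. At fbf-2 the strongest of 4 candidates lay in a coding exon, 2124 bp downstream of the gene's 5' end, at chrII:6089238-6089473. It reached 40.4 (IDR 0.107), with 18.1 and 20.4 in the compared lists. The own ranking of replicate 2 held it at 20.4 (IDR 0.874), and that of replicate 1 held no entry there. The next, with a signal of 30.8, was in a coding exon at 913 bp, also in the span of nspg-3, and was uneven between the compared lists, at 19.6 and 7.7. Both upstream candidates lay in the bodies of other genes, that at 443 bp in nspg-3 (22.9) and that at 1593 bp in tpp-2 (22.2). The 5' UTR site printed above, 36 bp downstream of the 5' end, was 479 bp from the nearest summit, and no candidate covered it.

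Much of the fbf-2 coding sequence is shared with fbf-1, whose 5' end lies 10637 bp away, so reads within identical stretches may not be assignable to 1 of the pair. Their coding sequences were identical at 91.7% of 1896 aligned positions, and the 500 bp upstream of each at 57.6%. Of the 31-base words in the fbf-2 candidates, 29.6% and 50.5% occurred more than once in the genome in the coding-exon entries and 0% in both upstream entries. How the authors treated such reads is not stated in these sources, and the part of shared reads in these signals was not tested. At fbf-1 the 10 candidates had signals from 2.7 to 23.8 and no LAG-1 site, and the span held 0 sites. The fbf-1 maximum of 23.8 stood below each of the fbf-2 coding-exon entries.

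At utx-1 the strongest of 11 candidates lay at the far end of the gene. The entry at chrX:8562715-8562950 was in a coding exon 5687 bp downstream of the 5' end, at signal 38.9 and IDR 0.0773. Both own rankings held it, replicate 1 at 22.4 (IDR 0.882) and replicate 2 at 19.3 (IDR 0.844). Its IDR in the pooled ranking, 0.0525, just missed 0.05. The candidate 519 bp upstream of the gene had a signal of 36.5 but 8.8 and 24.0 in the compared lists, and of the own rankings only that of replicate 2 held it. The candidate at the 5' end, in an intron at 122 bp, had a signal of 21.8, with 13.2 and 19 in the compared lists and summits 192 bp apart. Its IDR was 0.208, and 0.0900 in the pooled ranking. The GTGGGAA site in the intron was 467 bp from the nearest summit and the ATGGGAA site in the coding exon 142 bp. None of the 31-base words in the 11 entries occurred elsewhere.

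The looser core TGGGAA includes every RTGGGAA site, so counts could only stay or rise. At the strongest candidates of fbf-2 and utx-1 they stayed at 0. The spans held 7 such cores at sygl-1, 10 at lst-1, 4 at fbf-2 and 4 at utx-1. Within 100 bp of a summit lay 5, 4, 0 and 1 of them. The 1 at utx-1 was not at its strongest candidate.

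As a set the 26 candidates looked like candidates in general. Their median signal was 22.0, against 19.4 for all. Of the 26, 10 had an IDR of 0.683, the largest in the ranking, as did 40.4% of all candidates. The pooled ranking held 19 of the 26, and 85.9% of all. Replicate 1's own ranking held 13 and replicate 2's 8, against 44.6% and 39.5% of all, and 4 were in both, against 20.8%. The 4 were the sygl-1 peak, the fbf-2 entry at 913 bp and the utx-1 entries at 122 and 5687 bp. Where a candidate overlapped an own entry, its position and signal in the first compared list were those of replicate 1's ranking in 99.3% of cases, and in the second those of replicate 2's in 98.9%.

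**Figure D3:**
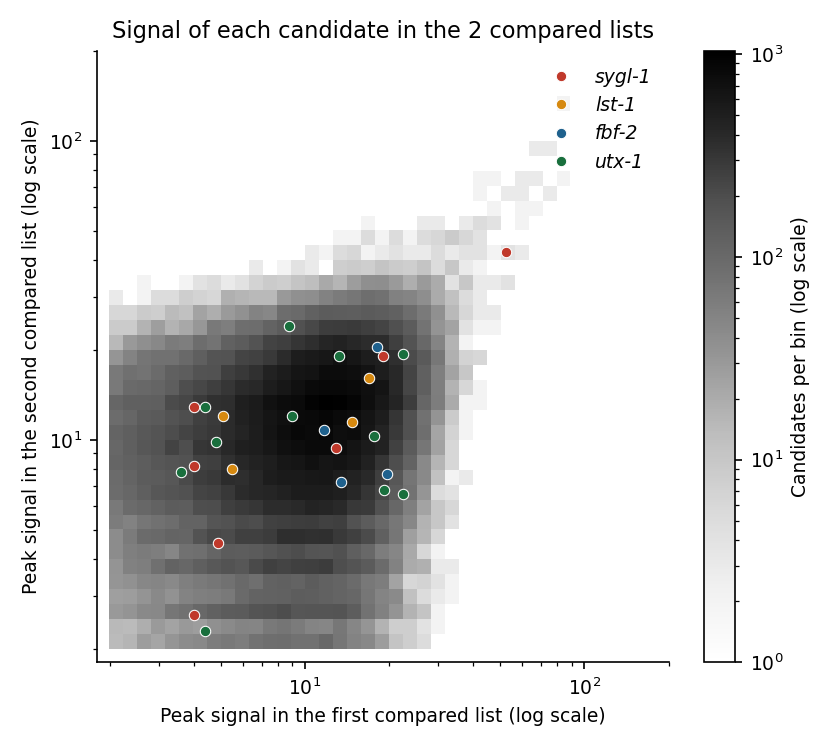
Each coloured point is a candidate of a member gene, with its peak signal in the first compared list on the x axis and in the second on the y axis, both on log scales cut at 200. Grey bins count all candidates on a log scale. The sygl-1 peak, at 52.6 and 42.3, stands on the arm of strong candidates, and the other 25 points lie within the dense cloud.

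Candidates with 4 or more sites were rare, and outside sygl-1 and lst-1 they lay in repeated sequence. Of all candidates 6.44% held a site within 100 bp of the summit, 0.338% held 2 or more, 0.0606% held 3 or more and 0.0343%, or 43, held 4 or more. For the looser TGGGAA 12.5% held 1 or more. Among conservative-list entries 2.06% held 2 or more and 0.687% held 4 or more. Of protein-coding genes with a candidate, 0.273% had 2 or more sites at the strongest and 0.0262%, or 5 genes, had 4 or more. The 43 candidates had a median signal of 48.5, and 37.2% of them passed an IDR of 0.01, against 0.297% of candidates with 0 sites, 0.196% with 1, 2.59% with 2 and 6.06% with 3. That 37.2% was 16 candidates, where the conservative list, with the same limit, held 2 entries with 4 or more sites. Most of the 16 are thus left out of that list, and the reason was not tested. The 43 are not all separate places, as several neighbour each other near alh-12, fbxa-221 and Y73F4A.1. Stretches of repeated sequence with several entries therefore count more than once in the 37.2%. By signal sygl-1 ranked 12 and lst-1 24 among the 43. These were the only 2 of the 43 in which every 31-base word occurs once in the genome, and in each of the other 41 at least 51.5% of the words were repeated. The words were examined after the candidates had been seen, and with words of 21 bases both had 0.926% repeated, against at least 70.8% in the others.

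**Figure D4:**
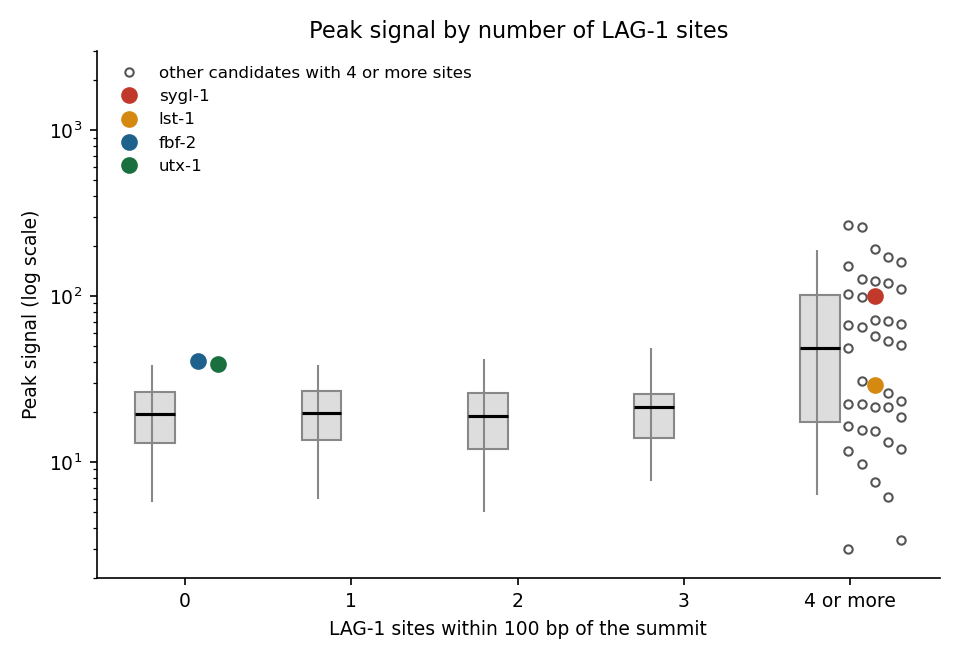
Peak signal on a log scale is plotted by the number of RTGGGAA sites within 100 bp of the summit. Boxes span the 25th to the 75th percentile of all candidates with that number, with the median as a line and whiskers from the 5th to the 95th percentile. Points at 4 or more are single candidates, and fbf-2 and utx-1 are placed at 0. The sygl-1 and lst-1 candidates, at 100.3 and 29.2, fall on either side of the median of 48.5.

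The other conservative-list entry with 4 or more sites lay 6281 bp upstream of nspa-10, the nearest protein-coding gene, and its sites were arranged unlike those of sygl-1 and lst-1. It held 7 GTGGGAA sites in 1 orientation with starts 27 bp apart, at signal 53.4 and IDR 0.00878. A neighbouring pair of them is shown to let the repeat be seen.
nspa-10 repeat, chrV:14756643-14756672, minus strand: agtagaatatgGTGGGAAgccacagagggt
nspa-10 repeat, chrV:14756670-14756699, minus strand: ggtaaaatatgGTGGGAAgccacagagagt

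The conservative-list peaks nearest to sygl-1 in number of sites, after that repeat, held 2 each. Likeness was the number of RTGGGAA sites within 100 bp of the summit in the 1 merged measurement of both replicates. They lay in an intron of Y43F8C.7 (signal 98.3), in a coding exon of col-163, a cuticle collagen gene (77.1), in the lag-1 intron (75.9) and 295 bp upstream of tatn-1, which encodes tyrosine aminotransferase (60.9). Their sites started 61, 107, 15 and 167 bp apart, where the starts of the sygl-1 sites were 16 to 64 bp apart. Each peak was named by the nearest protein-coding 5' end, so genes of other classes at these summits are not named here. Among all other candidates the most sites, 8, were found near C24H10.4, pes-10, Y97E10AL.1, Y53G8AR.1 and eif-3.K, with signals from 3.4 to 191.0.

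Few genes that act with the members had a candidate past the threshold, and few protein-coding genes in general did. Of 34 such genes 2 had a candidate past an IDR of 0.01 and 3 past 0.05, where 1.56% and 7.79% of all protein-coding genes did. The 3 were lag-1, set-16 and gld-2, with 25, 27 and 28 candidates in their spans, against a median of 5.00 per gene. Upstream of the targets, lag-1 passed at its own intron (chrIV:6097079-6097314, signal 75.9, IDR 0.00315), with 29.7 and 46.8 in the compared lists. It missed the threshold in the own ranking of replicate 1 (IDR 0.271) and passed in that of replicate 2 (IDR 0.00475). It was the 1 of 5 among the receptor, ligand and nuclear complex genes, and the others ranged from 27.9 at apx-1 to 40.8 at lag-2. Among partners and relatives of UTX-1, 1 of 11 passed, set-16, which encodes a methyltransferase of lysine 4 of histone H3. Its peak lay 179 bp upstream (chrIII:13643619-13643854) at signal 77.9 and IDR 0.00214, with 34.2 and 46.1 in the compared lists. It held no LAG-1 site, missed the threshold in both own rankings (IDR 0.563 and 0.320) and also lay in the spans of drr-2 and T12D8.10.

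Among 13 RNA regulators of the stem cell decision none passed 0.01. The gene gld-2, which encodes a cytoplasmic poly(A) polymerase that promotes entry into meiosis, passed 0.05, with a coding-exon candidate at signal 49.2 and IDR 0.0261, without a site. It missed 0.05 in the pooled ranking (IDR 0.0890) and in both own rankings (IDR 0.852 and 0.841). The lowest of the 13 was fbf-1, at 23.8. The 5 cell cycle and MAP kinase genes ranged from 26.7 at mpk-1 to 34.6 at cki-1, and none passed. The median strongest signal was 34.3 over the 34 genes, of which mes-3 had no candidate, and 32.7 over all genes. At 4 of the 34 the strongest candidate held a site, and at 1, lag-1, it held 2 or more, where 6.83% and 0.273% of all genes with a candidate did.

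**Figure D5:**
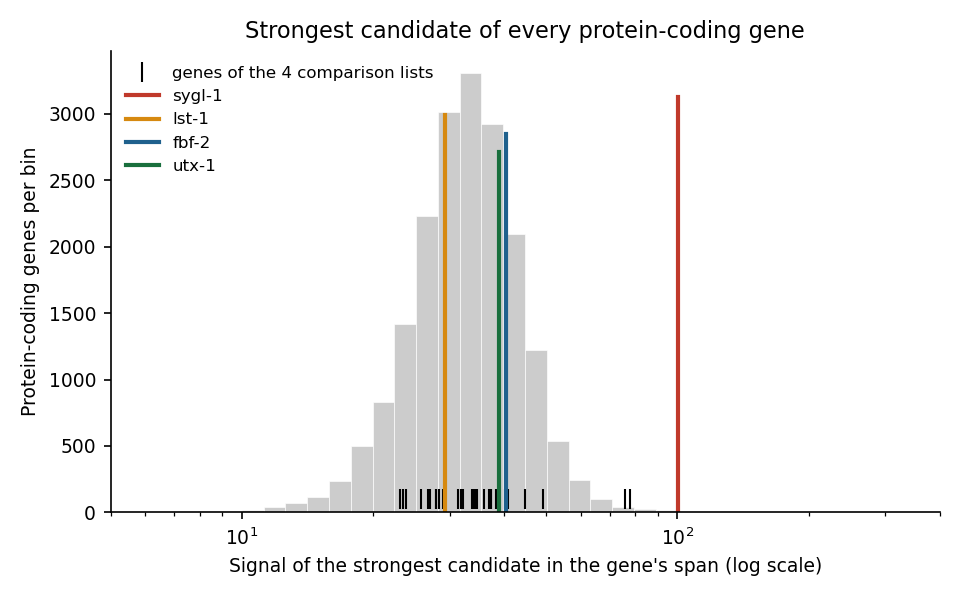
Grey bars count protein-coding genes by the signal of the strongest candidate in their span, on a log x axis. Coloured lines mark the 4 member genes and black ticks the genes of the 4 comparison lists. The lines of lst-1, utx-1 and fbf-2, at 29.2, 38.9 and 40.4, lie within the bulk around the median of 32.7, and sygl-1 at 100.3 lies beyond the listed genes, of which set-16 at 77.9 is the highest.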

How the data were processed

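The files are peak lists on ce11, made by the authors from ChIP and control reads, per the notes deposited with each replicate. No source used here states the aligner, the peak caller or the read totals. The deposited peak signal has no named unit and was used only within a list. The deposited score of each entry, a whole number that follows the IDR, was not used for any value. The deposited −log10 IDR was turned into an IDR, and the file headers name no column, so columns follow the order of the format. The deposited column 9, whose −log10 values fall below 0, was not used. The replicate ranking has 391 entries past an IDR of 0.01, of which the conservative list leaves out 100.

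Gene models were those of Ensembl release 115. Sites counted if they lay whole within 100 bp of a summit. Entries of different lists were matched if they shared at least 1 bp. A word of 31 bases was called repeated if it or its reverse complement occurred more than once. The fbf sequences were aligned globally. The design has 1 group, so nothing was tested. Steps were tested on simulated data. The members, lists and alternatives were chosen with earlier results of these data known. The text names the members, listed genes past an IDR of 0.05 or at the end of a list's range, fbf-1, and genes nearest to peaks with the most sites. Software was Biopython 1.88, matplotlib 3.10.9, NumPy 2.4.6, pandas 2.3.3 and Python 3.11.15.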

Additional observations from a re-analysis of the deposited data

How the results depend on the processing

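Of 89 alternative values, 70 stayed within 1.5 times (counts) or within the spread between the replicates' own rankings (percentiles), and 19 moved. Some of these values could not move. Site counts were fixed with GTGGGAA alone, as the sites at the sygl-1 and lst-1 summits all read so, and in the pooled list, which has the same summits. An IDR of 0.005 could not drop sygl-1 at 0.00148. The tally therefore does not measure robustness as such. The count of 1 member past the threshold held under all 8 alternatives run for it. With spans from 5000 bp upstream the lst-1 maximum was another candidate (percentile 93.1) with 0 sites, so 1 member rather than 2 had several sites at its strongest candidate. Candidates then numbered 13 at sygl-1, 8 at lst-1 and 9 at fbf-2. Within 50 bp of the summit lst-1 kept 1 site, which also left 1 member. Without 1 replicate that count was 1 to 2, and the percentile of the strongest candidate was 99.6 to 99.9 at sygl-1 (99.9 with both), 83.3 to 84.6 at fbf-2 (96.3) and 92.3 to 92.7 at utx-1 (95.4). The strongest entry was then another candidate at fbf-2 in replicate 1 (910 bp downstream) and at utx-1 in both (5221 bp downstream in replicate 1, -498 bp in replicate 2). The own lists are also shorter, so these percentiles do not compare directly. For lst-1 it was 72.5 without replicate 2, 81.9 in the pooled list and 81.3 with overlapping entries merged (82.0), and without replicate 1 there was no entry. No spread between the replicates could be taken for lst-1, so any change of its percentile counted as a move. The setting without an entry gave no lst-1 value among the 89. With words of 21 bases, chosen after the data were seen, 0 candidates with 4 or more sites (2 with 31 bases) and 3 site groups (5) held no repeated word. The cause of these shifts was not tested beyond what each setting changes. Depth is unknown, so a candidate that missed the threshold is not shown to lack binding.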

Other observations

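The genome holds 105 groups of at least 4 RTGGGAA sites in which every 4 neighbours fit within 103 bp, the width of the sygl-1 group, a width chosen after the data were seen. Of these, 42 overlapped a candidate. In 5 of the 105 every 31-base word occurs once in the genome. The 5 were sygl-1, lst-1 and groups nearest to K02E2.11, Y17G7B.12 and Y65A5A.1, and the last 3 overlapped no candidate. The group nearest K02E2.11, on chromosome V at 20383138 to 20383224, held 4 sites centred 134 bp upstream of the gene's 5' end. Those nearest Y17G7B.12 and Y65A5A.1 were 3344 and 5332 bp upstream, with 6 and 4 sites. These groups were soft-masked over 100% and 45.7% of their bases, against 24.3% at sygl-1 and 0% at lst-1 and K02E2.11. With words of 21 bases only the groups of sygl-1, lst-1 and K02E2.11 held no repeated word. The genes K02E2.11, Y17G7B.12 and Y65A5A.1 were chosen after their values were seen.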
